A study of Mus musculus with 12 samples.

Results

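Promoter elements that were called in pachynema, still called in diplonema and not called in leptonema/zygonema were examined in mouse spermatocytes. The elements came from leChRO-seq, a run-on assay that labels RNA still attached to engaged RNA polymerase, and from dREG, a trained classifier that locates initiation sites from the shape of the run-on signal and scores each peak it calls. The data comprised 12 libraries from wild-type adult testes, with leptonema/zygonema, pachynema and diplonema each represented by 4, and the substages had been enriched by STAPUT, which separates cells by size and density. Per the study's methods, the mice were on a C57Bl/6J or DBA/2J background, and the labels do not say which library came from which animals. The libraries of a substage were pooled before peaks were called, so that each substage gave 1 list. The leptonema/zygonema list held 71107 peaks, that of pachynema 68352 and that of diplonema 38603. The peak lists hold no read counts, depth was not compared between them, and a missing peak means only that no initiation was called there. The lists therefore have no replicate spread, and substages were not tested against each other.

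Overlapping or touching peaks from any of the 3 lists were joined, which gave 65172 elements. An element on chromosomes 1 to 19 was taken as a promoter element when its edge was under 1000 bp from an annotated transcription start site (TSS), and there were 25410 of these. Of these, 944 held both a pachynema and a diplonema peak and no leptonema/zygonema peak, and they are called gained promoter elements here. They were chosen by the peak calls themselves, so that their number, 3.72% of all promoter elements, is a description and not a finding. They were set against 12542 constant promoter elements with peaks of all 3 substages, 2925 with pachynema peaks only and 3710 with leptonema/zygonema peaks only.

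As background, spermatocytes in leptonema and zygonema pair their homologous chromosomes and transcribe sparingly, whereas pachytene spermatocytes switch on a broad program of genes for meiosis and for the later spermatid. The transcription factor A-MYB (the product of Mybl1), a member of the MYB family, is a known driver of that program, RFX2 and the CREB family factor CREM act in germ cells around the same time and later, and BRDT is a testis bromodomain protein that reads acetylated histones. Many mammalian promoters lie in CpG islands with GC boxes, CCAAT boxes and sites for ETS factors and NRF1, while a smaller class has few CpGs and is often tissue-restricted.

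The sequences just upstream of some of these starts show how different the elements were from one another. Each is the 100 bases before the annotated TSS, 5′ to 3′ along the gene on GRCm38 (mm10), and capitals mark matches, on either strand, of the 9 motifs that were searched. The first set belongs to genes that a rule on score selected (described further on), and it covers a CCAAT-rich, a GC-box, an E-box and an RFX-type start.
Fam50b (plus strand, chr13:34734750-34734849, CCAAT boxes): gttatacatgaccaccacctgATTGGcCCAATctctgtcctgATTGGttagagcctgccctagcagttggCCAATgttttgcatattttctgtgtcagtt
Bcas1 (minus strand, chr2:170349796-170349895, CCAAT boxes): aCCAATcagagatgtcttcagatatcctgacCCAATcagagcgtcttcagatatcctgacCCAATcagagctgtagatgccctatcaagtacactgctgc
Prrt2 (minus strand, chr7:127021212-127021311, GC boxes): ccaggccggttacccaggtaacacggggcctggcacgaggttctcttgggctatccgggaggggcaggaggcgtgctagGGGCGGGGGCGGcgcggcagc
Slc22a16 (plus strand, chr10:40570236-40570335, E-boxes): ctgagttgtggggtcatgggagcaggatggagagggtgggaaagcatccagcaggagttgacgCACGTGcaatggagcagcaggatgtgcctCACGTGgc
Tm6sf2 (plus strand, chr8:70072824-70072923, RFX): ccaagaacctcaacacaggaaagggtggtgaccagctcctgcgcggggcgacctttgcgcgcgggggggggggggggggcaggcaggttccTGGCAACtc
GC content of these windows ran from 46% at Fam50b, which held no CpG, to 73% at Prrt2, which held 9 CpGs.

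None of those 5 windows held a match of the MYB consensus GGCNGTT. Windows upstream of the starts of Dnah12, an axonemal dynein heavy chain gene, and Prkaca, the gene for the catalytic subunit of protein kinase A, did, and both were picked after their values had been seen.
Dnah12 (plus strand, chr14:26693174-26693273, MYB at the end next to the TSS): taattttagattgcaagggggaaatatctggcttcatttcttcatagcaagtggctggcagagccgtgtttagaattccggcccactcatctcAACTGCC
Prkaca (plus strand, chr8:83976783-83976882, MYB): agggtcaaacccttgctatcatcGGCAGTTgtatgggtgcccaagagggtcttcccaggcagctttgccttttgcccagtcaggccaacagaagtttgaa
Elsewhere in the elements selected by score, within 100 bp of the pachynema peak centre, the consensus was matched at the following sites, shown with 10 bases to each side, 5′ to 3′ on the strand of the match, with the site's own 7 bases in capitals.
Fam50b (chr13:34734746-34734752, plus strand): agtccaagtcGGCAGTTatacatgacc
Bcas1 (chr2:170350003-170350009, plus strand): agctcaagacGGCCGTTgatctgatac
Pitx3 (chr19:46147612-46147618, minus strand): gtctgtcgtgGGCCGTTtggatctgga
Glt1d1 (chr5:127632427-127632433, minus strand): cctacaacccGGCCGTTtgtgcacgcg
Egflam (chr15:7254788-7254794, plus strand): tccagaaaacGGCAGTTatcagtccgg
Mir496a (chr12:109738865-109738871, plus strand): ccctagaagaGGCAGTTgagttccctg
A match of the letters is a description of the sequence and does not show that a factor was bound.

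The gained promoter elements were mostly weak calls with a short tail of strong ones. The dREG score, which has no unit or fixed range and was not scaled between lists, had a median of 0.486 in pachynema, from 0.264 to 1.34, and of 0.436 in diplonema, from 0.247 to 1.17. The median element ranked at the 39.2nd percentile of all pachynema peaks and at the 35.9th of all diplonema peaks. Both scores reached 0.5 in 238 elements (25.2%) and 0.8 in 39 (4.13%). Over the 944 elements the scores of the pachynema and diplonema peaks had a Pearson correlation of 0.56 and a Spearman correlation of 0.44. That is a description across elements that share their position and base composition, and no p is given for it. The median element was 610 bp wide, against 1230 bp for constant elements, and 706 held exactly 1 pachynema and 1 diplonema peak. The median distance between the centres of the highest-scoring pachynema and diplonema peaks was 60 bp, against 50 bp in constant elements. Merging joins only peaks that overlap or touch, so that closeness of the peaks is largely set by the rule.

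**Figure D1:**
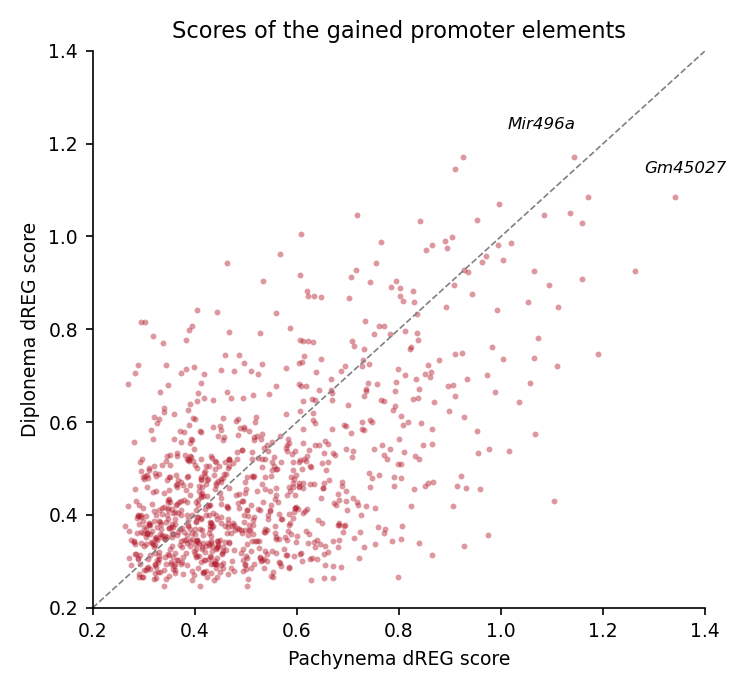
Each point is 1 of the 944 gained promoter elements, placed by the highest dREG score of its pachynema peaks (horizontal axis, no unit) and of its diplonema peaks (vertical axis, no unit), and the dashed line marks equal values. Most points crowd below 0.6 on both axes, and the lincRNA gene Gm45027 and the miRNA gene Mir496a stand at the upper end.

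The gained elements were of 2 kinds, isolated from earlier calls or beside one. In 609 of 944 (64.5%, Wilson 95% interval 61.4 to 67.5, for the counting of elements only) no leptonema/zygonema peak lay under 1000 bp from the element, and in 388 the nearest was over 10000 bp away. The other 335 had a leptonema/zygonema peak under 1000 bp away, including 101 within 100 bp and 23 within 20 bp. These 335 therefore lay beside an initiation site that had already been called, and they had a median pachynema score of 0.437, against 0.528 in the isolated elements. Aak1, a kinase gene of clathrin-coated vesicle formation, was among the closest: its element on chromosome 6 (86850201 to 86850590) lay 10 bp from a leptonema/zygonema peak, with a pachynema score of 0.617 and a diplonema score of 0.678.

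**Figure D2:**
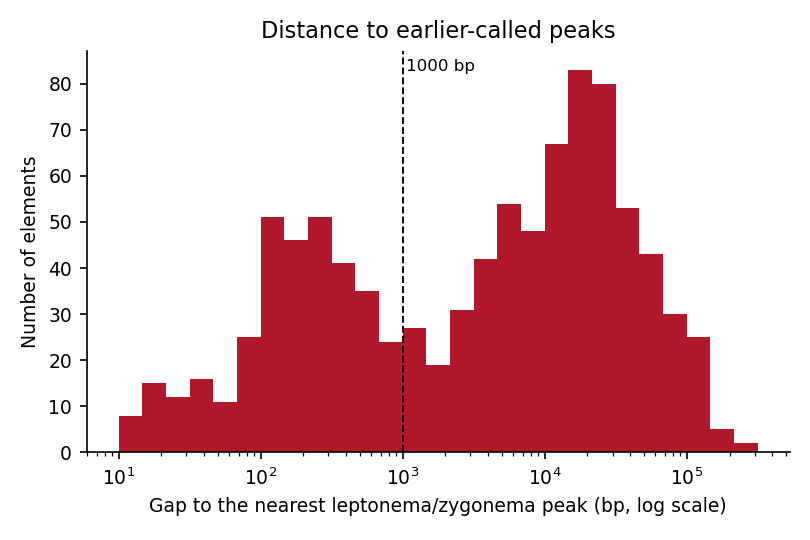
Number of gained promoter elements (vertical axis) by the gap in bp to the nearest leptonema/zygonema peak (horizontal axis, log scale), with a dashed line at 1000 bp. The counts form 2 humps, 335 elements left of the line and 609 right of it.

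Elements close to the TSS limit are given as a description. Those just inside the TSS limit belonged to Chp1 (999 bp, pachynema score 0.711, diplonema score 0.537), Hectd4 (990 bp, 0.751 and 0.79 in the same order) and Nkx6-1 (985 bp, 0.452 and 0.477). Those just outside lay 1000 bp from Gm47363 (pachynema score 0.447, diplonema score 0.36), 1004 bp from Gm37111 (0.677 and 0.413) and 1027 bp from Atxn1 (0.568 and 0.374). All 19 chromosomes contributed, with shares between 2.82% of promoter elements on chromosome 9 and 4.69% on chromosome 3.

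The 20 elements with the highest lower-of-both score were taken among 300 elements that had a TSS of a protein-coding gene inside and no leptonema/zygonema peak under 1000 bp. The class is that of the gene, and the assigned starts of Trim14, Bcas1, Cd300c and Egflam belong to processed transcripts. The selection by score means that their values are given without a test. Slc13a5, a sodium-coupled citrate transporter gene, headed the list with a pachynema score of 1.171 and a diplonema score of 1.085 on chromosome 11 (72266111 to 72267620), where the nearest leptonema/zygonema peak was 13530 bp away. Fam181a followed with a pachynema score of 1.136 and a diplonema score of 1.051, and Fam50b, a retrogene related to Fam50a, with 1.084 in pachynema and 1.046 in diplonema. Of the 20 genes, 15 had no leptonema/zygonema peak under 1000 bp of any of their starts.

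The genes are grouped here by their known roles, a grouping made after they had been selected. Transporters and membrane proteins were Slc22a16, the carnitine transporter of the male reproductive tract (pachynema score 1.065, diplonema score 0.926), Tm6sf2, which acts in lipid export from liver cells (0.89 and 0.99), and Prrt2, a synaptic membrane protein (1.158 and 1.028). Immune and host-defence genes were Bpi, a bactericidal protein (1.003 in pachynema and 0.95 in diplonema), Ifitm7, of the interferon-induced transmembrane family (0.953 and 1.035), Trim14, an antiviral signalling adaptor (0.995 and 0.982), and Cd300c, a myeloid receptor (0.827 and 0.882). Developmental regulators were Pitx3, a homeobox gene of lens and midbrain neurons (1.111 in pachynema and 0.849 in diplonema), Irx2, an Iroquois homeobox gene (0.803 and 0.888), and Shisa3, an inhibitor of Wnt and Fgf receptors (0.97 and 0.957). Tdrd6 encodes a tudor protein of the chromatoid body, the RNA granule of spermatids. Its element on chromosome 17 ran from 43628461 to 43631350, held 5 pachynema and 5 diplonema peaks, and had a pachynema score of 0.795 and a diplonema score of 0.905.

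The remaining 6 were Cmtm2b (pachynema score 0.936, diplonema score 0.924), Bcas1, a gene of myelin-forming cells (0.865 and 0.982), Dio2, the thyroid hormone activating deiodinase (0.892 and 0.849), Toporsl (0.842 and 1.034), Glt1d1 (0.811 and 0.796), and Egflam, a matrix protein of the photoreceptor synapse (0.836 and 0.791). Diplonema scored above pachynema in 7 of the 20, and over all 944 elements in 370 against 573 with the opposite order, although scores of different lists are not on a common scale.

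**Figure D3:**
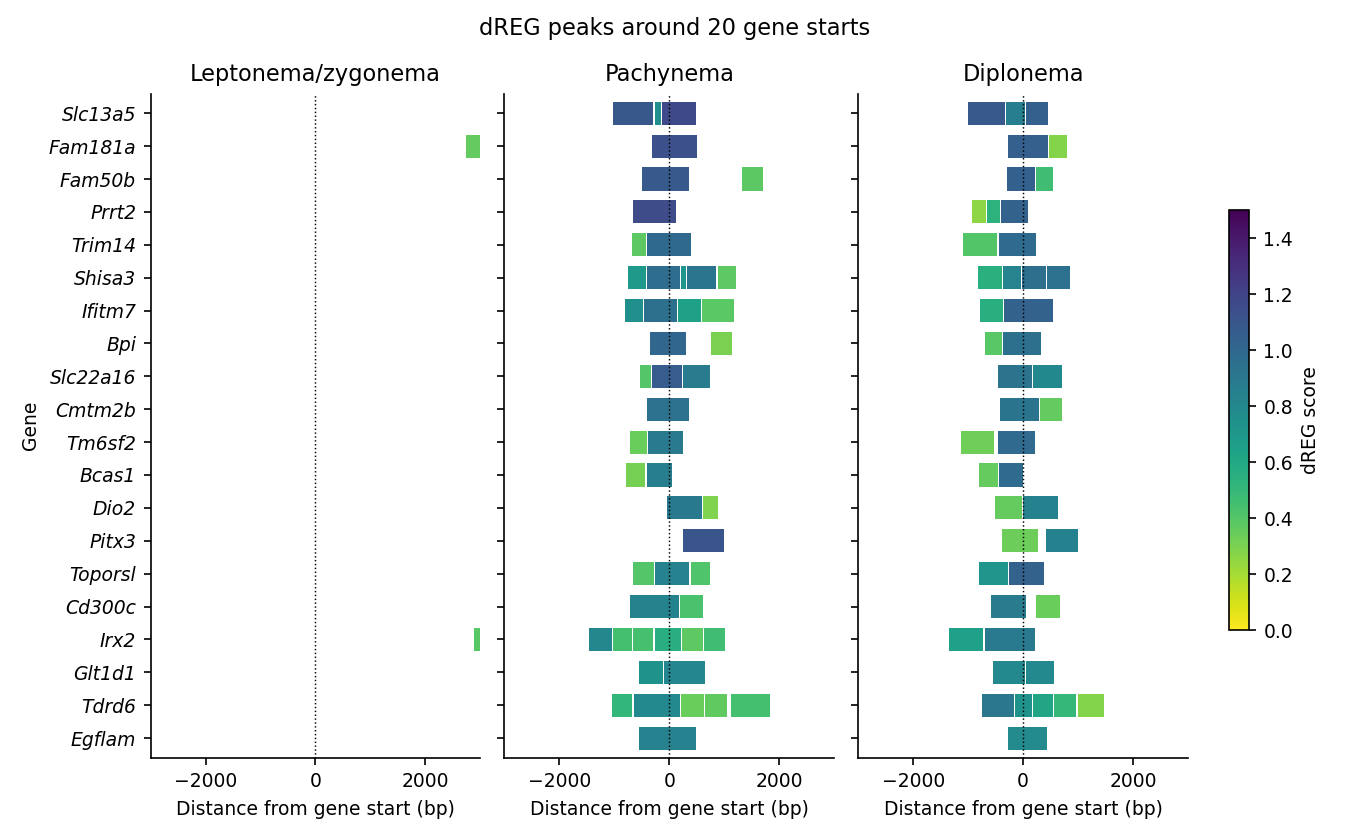
dREG peaks within 3000 bp of the TSS of the 20 highest-scoring gained genes (vertical axis, in order of score) in leptonema/zygonema, pachynema and diplonema; boxes span each peak along the gene (horizontal axis, bp from the TSS, upstream to the left) and colour gives its dREG score. The selection required that no leptonema/zygonema peak lie near the element and that pachynema and diplonema peaks meet in it. The only leptonema/zygonema peaks in view begin 2746 bp downstream of the Fam181a start and 2881 bp downstream of that of Irx2.

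Non-coding starts gave some of the strongest calls. Of the isolated elements, 196 had only non-coding or pseudogene TSSs within reach. The highest-scoring one lay in the imprinted miRNA cluster downstream of Dlk1. There it lay at the annotated starts of Mir496a, Mir154 and Mir377 and of an Mirg transcript, the miRNA host RNA. An annotated start need not be a site of initiation. The element ran from 109738471 to 109739780 on chromosome 12, with a pachynema score of 1.143 and a diplonema score of 1.171. The nearest leptonema/zygonema peak was 82740 bp away. The lincRNA gene Gm45027 had the highest pachynema score of all 944 elements, 1.34, and a diplonema score of 1.086. Next came the lincRNA genes AC116489.3 (pachynema score 0.996, diplonema score 1.069) and Gm13605 (1.02 and 0.985), and the unclassified transcript Gm44106 (0.962 and 0.945).

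An annotated TSS lay inside the element in 516 of 944 cases (54.7%), less often than in constant elements (89.7%, difference -35.1 percentage points, Newcombe 95% interval -38.3 to -31.9) and more often than in pachynema-only elements (29.7%, difference 25, 21.3 to 28.5) or leptonema/zygonema-only elements (32.3%, difference 22.4, 18.8 to 25.9). These intervals cover the counting of elements, which are not independent where they neighbour each other. Elements are narrower in the single-substage classes, with medians of 370 and 380 bp, and the part of width in these shares was not tested. A protein-coding TSS was within 1000 bp in 692 elements (73.3%), against 84.3% of constant elements (difference -11, -14 to -8.24), 76.3% of pachynema-only elements (difference -3, -6.28 to 0.143) and 73.5% of leptonema/zygonema-only elements (difference -0.172, -3.4 to 2.91). LincRNA or antisense TSSs without a protein-coding one accounted for 16.9%, against 10.5% of constant elements (difference 6.5, 4.17 to 9.08), 11.8% of pachynema-only elements (difference 5.19, 2.62 to 7.95) and 14.3% of leptonema/zygonema-only elements (difference 2.61, 0.0686 to 5.36). TSSs on both strands within 1000 bp, in whatever order, were found in 14.9%, against 23.1% of constant elements (difference -8.19, -10.4 to -5.66). The share was 13% in pachynema-only elements (difference 1.91, -0.57 to 4.6) and 12.6% in leptonema/zygonema-only elements (difference 2.35, -0.0527 to 4.97). For pseudogene TSSs alone the share was 5.93%, against 2.58% of constant elements (difference 3.36, 1.99 to 5.07), and the intervals of the differences from the single-substage classes included 0.

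At the level of genes, 691 of 20807 autosomal protein-coding genes (3.32%) had a gained element, and 282 (1.36%) had one and no leptonema/zygonema peak at any start. The other 409 had been called at some start in leptonema/zygonema. In 294 of them every gained element lay under 1000 bp from a leptonema/zygonema peak, and in 115 at least 1 was farther away. A gained element was also found at 131 of 5209 lincRNA genes (2.51%) and 77 of 2913 antisense genes (2.64%).

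Some isolated elements lay at or near another start of a gene that was already called. For 126 of them the assigned gene, in all 112 protein-coding genes, had a leptonema/zygonema peak at another TSS. That other TSS lay a median of 22300 bp from the assigned one (quartiles 9250 and 67500). The assigned TSS lay inside 89 of the 126, and the other elements were under 1000 bp from it. Prkaca is known for a separate first exon that makes the sperm form of the kinase subunit. Its element ran from 83976111 to 83977420 on chromosome 8 around a TSS at 83976883. The element scored 0.511 in pachynema and 0.421 in diplonema, and that TSS lay 3890 bp from a start called in leptonema/zygonema. For Brdt the element (107359331 to 107360310 on chromosome 5) covered the start of a processed transcript and scored 0.604 in pachynema and 0.682 in diplonema. The start of that transcript lay 28645 bp from a called start, where the best leptonema/zygonema score was 1.27. Other such elements, chosen after their values were seen, belonged to Wnt5b, a Wnt ligand (pachynema score 1.072, diplonema score 0.781), Tet3, a 5-methylcytosine dioxygenase (0.982 and 0.762), and Mdm4, a p53 inhibitor (0.744 and 0.902).

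Genes of the germ-cell program were counted beside all 20807 autosomal protein-coding genes, of which 60.7% had a leptonema/zygonema peak at a start and 3.32% a gained element. Of 42 acrosome and sperm-egg fusion genes 41 had a leptonema/zygonema peak at a start, and 3 (7.14%) had a gained element. Adam3, a sperm surface protein needed for passage through the oviduct, had an element scoring 0.926 in pachynema and 1.171 in diplonema, 440 bp from a leptonema/zygonema peak, and the best leptonema/zygonema score at its start was 0.29. Adam18 had 2 gained elements and no leptonema/zygonema peak, the stronger of them with a pachynema score of 0.728 and a diplonema score of 0.586, and that of Adam32 scored 0.661 and 0.552 at 200 bp from a leptonema/zygonema peak.

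Among 43 autosomal axoneme and flagellum genes 42 were called in leptonema/zygonema and 2 had a gained element, Dnah1 (pachynema score 0.538, diplonema score 0.456, 40 bp from a leptonema/zygonema peak) and Rsph4a, a radial spoke gene (0.306 and 0.286). Dnah12, found among 15 genes named Dnah, had no leptonema/zygonema peak at a start and a gained element of pachynema score 0.77 and diplonema score 0.807. Of 16 sperm ion channel and transporter genes 2 had one, Slc22a16 and Catsperg1, a subunit of the sperm calcium channel, whose higher-scoring element had 0.299 in pachynema and 0.482 in diplonema. Of 27 piRNA pathway genes 2 had one, Tdrd6 and Pnldc1, which trims piRNA ends (0.441 and 0.4).

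Of 21 regulators of pachytene transcription 20 were called in leptonema/zygonema (60.7% of all protein-coding genes were) and 4 (19%, beside 3.32%) had a gained element: Brdt, Sox5 (0.472 in pachynema and 0.377 in diplonema), Rfx2 (0.321 and 0.612) and Ovol2 (0.313 and 0.379). Elements of Rfx2 and Ovol2 lay 290 and 170 bp from a leptonema/zygonema peak. In the list of 11 spermatid chromatin genes Brdt was the only one, and in that of 12 testis kinases and phosphatases Prkaca. None of 22 synapsis, cohesion and crossover genes, 17 genes of meiotic entry and double-strand breaks, 26 genes of the meiotic divisions or 13 germ-cell energy genes had a gained element, and with lists of this size the background of 3.32% would give fewer than 1 in each, so nothing is read from these zeros. In a list of 15 genes taken from those the study names, which did not include Rfx2, each gene had peaks in the 3 substages and Brdt had a gained element, the others none.

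Families outside the germ-cell lists were counted in the same way, without a test between them. Solute carrier (Slc) genes were taken by name, so that Slc9a3r2, not itself a carrier gene, was counted with them. Of 372 genes 25 (6.72%) had a gained element, beside 3.32% of all protein-coding genes. In 14 (3.76%) there was one and no leptonema/zygonema peak, beside 1.36% of all protein-coding genes. Among these were the sodium-proton exchanger genes Slc9a3 (pachynema score 0.748, diplonema score 0.6) and Slc9a2 (0.555 and 0.524), the bicarbonate transporter gene Slc4a4 (0.524 and 0.522) and the anion exchanger gene Slc26a7 (0.541 and 0.55). Of 1128 olfactory receptor (Olfr) genes 1 had one, Olfr323 (0.908 and 0.895), and of 388 Zfp genes 15 (3.87%). None of 42 kinesin, 53 keratin and 30 Tex genes did, and 1 of 54 genes of the Rpl family did.

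Families of developmental regulators were added after the homeobox genes above had been seen, so their counts are not independent of those names. They stand beside the same shares of all protein-coding genes, 3.32% with a gained element and 60.7% with a leptonema/zygonema peak. A further share, 1.36%, had a gained element and no leptonema/zygonema peak and is part of the 3.32%. Of 107 homeobox genes 10 (9.35%) had a gained element and 29 a leptonema/zygonema peak, and 7 (6.54%) had a gained element and no such peak. Nkx6-1 (pachynema score 0.715, diplonema score 0.927), which also had a leptonema/zygonema peak, was among the 10. Of 26 Sox and Gata genes 5 (19.2%) had a gained element, and 2 (7.69%) had one and no leptonema/zygonema peak. Of 62 genes named Wnt, Fgf or Bmp, the receptor gene Fgfr3 among them, the counts were 7 (11.3%) and 5 (8.06%) in the same order. Of 41 forkhead genes they were 3 (7.32%) and 2 (4.88%), with Foxe3, a lens factor, at 0.838 in pachynema and 0.778 in diplonema. None of 14 T-box genes had a gained element. Of 70 Trim genes 3 (4.29%) had one, Trim14, Trim12a (0.854 and 0.97) and Trim69 (0.648 and 0.869). The Trim list was also added after the data had been seen, and Trim14 was already among the genes selected by score.

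Markers of other cells were checked beside these genes. Of 9 Sertoli cell markers 4 had a leptonema/zygonema peak at a start, 6 a pachynema peak and 4 a diplonema peak, and 3 (33.3%, beside 3.32% of all protein-coding genes) had a gained element: Wt1 (pachynema score 0.408, diplonema score 0.311), Sox9 (0.359 and 0.564) and Gata4 (0.394 and 0.261). Sox9, Gata4 and Clu had a peak at a start in all 3 substages. Thus 1 of the 9, Wt1, had a gained element and no leptonema/zygonema peak (11.1%, beside 1.36% of all protein-coding genes). Inha had a peak in leptonema/zygonema and pachynema and Cldn11 in pachynema, and Amh, Fshr and Dhh had none in any. Of 7 Leydig cell markers none had a leptonema/zygonema peak, 2 a pachynema peak and 1 a diplonema peak, Lhcgr, which held the only gained element of the list (14.3%, pachynema score 0.293 and diplonema score 0.294), and Star, Cyp17a1, Hsd3b1, Hsd3b6 and Insl3 had no peak in any. Of 9 peritubular, macrophage and endothelial markers 1, Lyz2, had a leptonema/zygonema peak and none a pachynema or diplonema peak. Of 10 spermatid markers 8 were called in each of the 3 substages, and none had a gained element. Of 7 spermatogonia and meiotic entry markers all were called in leptonema/zygonema and in pachynema and 4 in diplonema, where Stra8, Sohlh1 and Sohlh2 had no peak, and none had a gained element. All 7 leptonema/zygonema markers and all 8 pachynema markers were called in each of the 3 substages, and Brdt was the only one of these 15 with a gained element. In pooled fractions, more cells of a type and more initiation per cell cannot be told apart, and the part of other cells in the gained elements was not tested.

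The rule did not use the sequence around the peak centre. There the gained elements had median GC and CpG values between those of the constant and the single-substage elements, without matching on score or TSS position. Within 100 bp to each side of the centre of the highest-scoring pachynema peak, the median GC content was 54.2% (quartiles 48.3 and 61.7), against 60.7% in constant elements, 52.2% in pachynema-only elements and 50.7% in leptonema/zygonema-only elements, where the window was at that list's own peak. The ratio of observed to expected CpGs had a median of 0.473, against 0.739, 0.415 and 0.321 in the same order. The isolated elements had a median GC content of 56.2% and those next to a leptonema/zygonema peak one of 51.7%.

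Motifs were counted as present or absent, on both strands, in the same windows. MYB was GGCNGTT, RFX GTTGCNA, CREB TGACGTNA, the GC box GGGCGG, NRF1 its consensus of 10 letters, ETS CCGGAAG, the CCAAT box CCAAT, the TATA box TATAAA and the E-box CACGTG. The MYB and RFX letters can share GTT, and over all 25410 promoter elements the shares with a match were 9.6% for MYB, 9.17% for RFX, 3.14% for CREB, 34.5% for the GC box, 4.32% for NRF1, 7.82% for ETS, 25.9% for the CCAAT box, 5.97% for the TATA box and 5.96% for the E-box.

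Without regard to score, MYB was more frequent in the gained elements than in each of the 3 classes they were compared with. A match was present in 142 of 944 (15%, Wilson 95% interval 12.9 to 17.5). The share was 10.8% in constant elements (difference 4.22 percentage points, Newcombe 95% interval 2.01 to 6.7), 8.99% in pachynema-only elements (difference 6.05, 3.65 to 8.66) and 6.85% in leptonema/zygonema-only elements (difference 8.2, 5.89 to 10.7). The consensus forms CAGTTG and GCAGTT gave differences from constant elements of 4.8 and 5.33. Around the diplonema peak centre in place of the pachynema one the difference was 2.05, with an interval of -0.0612 to 4.45 that included 0. Of the 164 matches in gained elements 51 (31.1%) lay within 25 bp of the centre, against 30% in constant elements.

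The MYB share was then taken within bands of the pachynema score. In gained elements it was 13.3% of 270 elements with a pachynema score under 0.4, 12.6% of 381 from 0.4 to under 0.6, 18.9% of 185 from 0.6 to under 0.8 and 21.3% of 108 at 0.8 and over. Constant elements of the same score bands had 10.2%, 7.02%, 9.97% and 11.4%, so that the differences were 3.09 (-2.6 to 8.67), 5.58 (2.12 to 9.57), 8.95 (3.74 to 15.3) and 9.93 (3.24 to 18.6). Against pachynema-only elements the differences in the same bands were 5.39 (1.6 to 10.1), 3.03 (-0.565 to 7.11), -0.165 (-9.23 to 8.37) and 10.2 (-12.5 to 22), so that the interval left out 0 only under 0.4. Within 3 broad bands of GC content the difference from constant elements was 5.4 (1.59 to 10) under 50% GC. It was 1.93 (-1.58 to 6.16) from 50 to under 60% and 5.04 (1.27 to 9.69) at 60% and over.

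**Figure D4:**
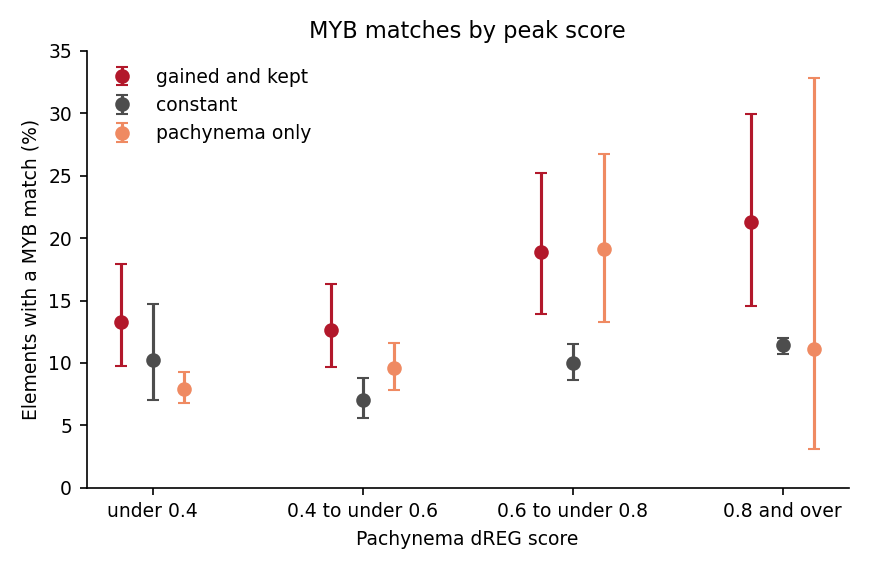
Percent of elements with a MYB match (vertical axis) in bands of the pachynema dREG score (horizontal axis, no unit) for gained, constant and pachynema-only promoter elements; points are shares and bars Wilson 95% intervals. The gained elements lie between 12.6% and 21.3%, the constant ones between 7.02% and 11.4%, and the last pachynema-only point rests on 18 elements.

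The isolated elements had a match in 101 of 609 (16.6%) and those next to a leptonema/zygonema peak in 41 of 335 (12.2%), and the difference of 4.35 had an interval of -0.458 to 8.76. Against constant elements the isolated ones differed by 5.76 (2.97 to 8.97) and the others by 1.42 (-1.72 to 5.4). Of the 126 isolated elements at or near a further start of a gene already called, 26 (20.6%, 14.5 to 28.5) had a match, that of Prkaca among them. Of the 20 genes selected by score, 5 had one: Fam50b, Bcas1, Pitx3, Glt1d1 and Egflam.

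No other motif was called more frequent in gained than in constant elements around the pachynema peak centre. The GC box was present in 24.6%, against 45.8% (difference -21.3, -24.1 to -18.3), NRF1 in 1.59% against 7.31% (difference -5.72, -6.5 to -4.61), ETS in 4.66% against 12.1% (difference -7.44, -8.75 to -5.81) and the CCAAT box in 23.7% against 28.8% (difference -5.09, -7.82 to -2.17). RFX was present in 6.25% against 10.4% (difference -4.19, -5.67 to -2.39) and CREB in 1.59% against 4.76% (difference -3.17, -3.9 to -2.09). Constant elements had much higher pachynema scores, with a median of 1.05. Within the 4 score bands, from the lowest to the highest, the GC box difference was -6.47, -9.14, -12.4 and -25.7, and its interval left out 0 at scores of 0.4 and over. That of NRF1 was -1.31, -0.258, -1.74 and -4.92, that of ETS -1.06, -0.247, -2.38 and -5.58, and that of the CCAAT box -3.31, -0.622, 0.931 and -4.22. The RFX difference was -3.01, -2.7, -3.97 and -3.28, and the CREB difference 0.252, -0.885, -2.49 and -2.58. For these 5 motifs the interval included 0 in each band, and the bands hold fewer elements than the whole.

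Set against the single-substage classes, gained elements held the GC box more often than pachynema-only (difference 5.05, 2.03 to 8.22) and leptonema/zygonema-only elements (5.25, 2.31 to 8.35), and the E-box likewise (2.54, 0.901 to 4.45, and 3.41, 1.84 to 5.27). The TATA box was rarer than in either (difference -2.53, -4.16 to -0.671, and -3.09, -4.65 to -1.26). Against leptonema/zygonema-only elements RFX was rarer (difference -2.48, -4.15 to -0.55) and ETS more frequent (1.35, 0.018 to 2.97). The intervals of the CREB, NRF1 and CCAAT box differences from both classes, and of the RFX and ETS differences from pachynema-only elements, included 0. The TATA box share of 5.3% differed from the 4.51% of constant elements by 0.784 (-0.528 to 2.44). Around the diplonema peak centre that difference was 2.28, with an interval of 0.81 to 4.09 that left out 0. The E-box share, 6.78%, differed from the 7.49% of constant elements by -0.715 (-2.23 to 1.13). None of the 20 genes selected by score had a TATA box near the peak centre, 6 had a GC box and 1, Tm6sf2, an RFX match.

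**Figure D5:**
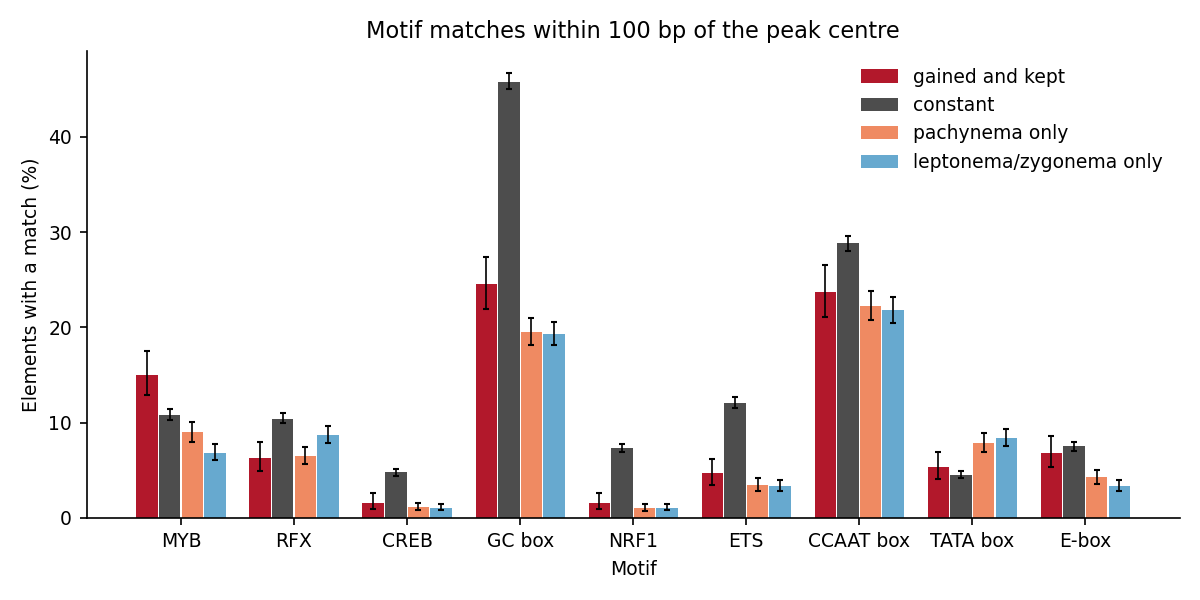
Percent of promoter elements with a match of each of 9 motifs (horizontal axis) within 100 bp of the peak centre (vertical axis, %), for gained and kept, constant, pachynema-only and leptonema/zygonema-only elements; bars are shares and whiskers Wilson 95% intervals. The gained elements have the highest MYB bar, at 15%, and stand far below the constant ones for the GC box, at 24.6% against 45.8%.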

How the data were processed

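Per the study's methods, the authors removed duplicate reads by molecular identifier, clipped adapters (cutadapt), aligned reads to mm10 (BWA) and ran dREG with default settings; the labels also name bedtools, and the dREG version is not given in the sources used here. The authors deposited 1 list of peaks per substage, called on its 4 pooled libraries, with a dREG score, a p-value and a centre position for each peak. All p-values were at most 0.05. Scores were used to rank and to form bands, and the lists hold no read counts; the depth range and per-library factors that the study gives were not used to scale them. Peaks of the 3 lists were merged when they overlapped or touched, and distances were taken to TSSs of GENCODE M21 transcripts (132629 positions). Sequences were read from GRCm38 around the deposited centres. Shares carry Wilson and differences of shares Newcombe 95% intervals, and a difference was called when its interval left out 0. Merging, gaps between peaks, TSS distances, the motif scan and the Newcombe interval were tested on simulated data, and the other steps were not.

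The elements and gene lists were chosen with earlier results of these data known. Genes were named by score among isolated elements (20 protein-coding, 5 non-coding), by the gene lists, because the study names them, or as the elements nearest the limits of the rule. Dnah12, Prkaca, Wnt5b, Tet3 and Mdm4 were singled out, and the sex-chromosome genes named, after their values were seen. Alternatives were score and p-value filters, lists of equal size, merging distances, TSS sets, motif windows and consensus forms, and bands of score. Bands of GC content, the split by a nearby leptonema/zygonema peak, the developmental families and the Trim list were chosen after seeing the data. Analyses used pysam 0.24.0, scipy 1.17.1, pandas 2.3.3, numpy 2.4.6 and matplotlib 3.10.9 under Python 3.11.15. Signal tracks and other assays were not used here.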

Additional observations from a re-analysis of the deposited data

Results flagged for a closer look

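The comparisons above used autosomes. On the X chromosome 28 of 954 promoter elements (2.94%, Wilson 95% interval 2.04 to 4.21) held pachynema and diplonema peaks and no leptonema/zygonema peak. They drew attention because the comparisons did not use this chromosome and the share was above the 0.314% that a count of 0 allows, a low bar. The autosomal share of 3.72% lies within the interval. By the lower of both scores the strongest lay at Mtm1 (71214771 to 71215450), with a pachynema score of 0.822 and a diplonema score of 0.852, 600 bp from a leptonema/zygonema peak. On the Y chromosome 5 of 46 did (10.9%, 4.73 to 23), and the 6.52% that a count of 0 allows there lies within that interval. As background, the sex chromosomes are transcriptionally silenced in pachytene spermatocytes.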

How the results depend on the processing

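Peaks were called on pooled libraries, so no replicate could be left out. No paired analysis was possible because libraries of 1 substage were pooled into a single list. Of 112 recomputed values, 60 kept their direction and size or side of the threshold. The number of elements was 1310 with lists of equal size, which addresses their unequal length, and 607 with merging up to 500 bp apart, 609 with no leptonema/zygonema peak within 1000 bp and 516 with a TSS inside. The isolated share became 77.7% at scores of at least 0.5, 68.8% at p-values of at most 0.01, 71.5% with lists of equal size, 82.6% and 96% with merging up to 100 and 500 bp apart, 59.7% with TSSs of protein-coding genes and 84.3% with a TSS inside. The share with a protein-coding TSS became 76.3% with equal lists, 70.2% and 68.9% with the 2 merging distances, 67.8% for isolated elements and 70.3% with a TSS inside. The GC difference from constant elements, -6.47 percentage points, became -4.98 with equal lists, -4.48 with merging up to 500 bp and also for isolated elements, and -3.98 with a TSS inside. The isolated share with no nearby leptonema/zygonema peak and the protein-coding share with protein-coding TSSs are fixed by construction and were not computed.

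The MYB difference from constant elements, 4.22 percentage points, lay between 4.07 and 9.17 under the list, merging, TSS, wide-window and consensus alternatives and was 2.69 with a window of 50 bp to each side. Its interval included 0 at the diplonema peak (2.05), at scores under 0.4 (3.09), at 50 to under 60% GC (1.93) and in elements next to a leptonema/zygonema peak (1.42). Within the score bands from lowest to highest, RFX gave -3.01, -2.7, -3.97 and -3.28, and CREB 0.252, -0.885, -2.49 and -2.58, all with intervals that included 0. For the TATA box the difference from constant elements was called at the diplonema peak (2.28, against 0.784 at the pachynema peak). Directions also turned for the TATA box at scores under 0.4 (-1.08), from 0.6 (-2.5) and from 0.8 (-1.13), for the CCAAT box from 0.6 (0.931), and for the E-box with the 50 bp window (0.155) and in bands from 0.4 (1.33), 0.6 (0.189) and 0.8 (2.27). The cause of these changes was not tested. Depth was not compared between the lists, which limits every statement that a peak was absent.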
